A study of Sus scrofa with 14 samples.

Results

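The keratins KRT5, KRT7, KRT8, KRT14, KRT15 and KRT18 and the transcription factor TP63 were followed through the sow mammary gland, as the genes that mark its luminal and basal epithelial cells. Of 9 genes asked for (KRT17 and KRT19 were the others), 7 had a row under their symbol, the same 7 in all 14 libraries, among 30071 gene IDs of which 15983 carried a symbol. KRT17 and KRT19 were therefore not analysed here. Multiparous sows were sampled on day 90 of gestation (G90), days 0 and 20 of lactation (L0 and L20) and 2 and 7 days after natural involution (PI2 and PI7). Nuclei came from 10 glands (2 per stage), Visium sections from 1 gland at G90 and 1 at PI2, and whole cells from 1 milk sample at L0 and 1 at L20. The sows carried no listed allele or drug treatment, so the stages differed only in time within the reproductive cycle as far as the labels went.

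Keratins form the intermediate filaments of epithelial cells and assemble as pairs of a type I and a type II chain. KRT8 and KRT18 are the usual pair of simple, secretory epithelium, with KRT7 as another type II chain of glands and ducts. KRT5 (type II) and KRT14 (type I) pair in the basal layer that rests on the basement membrane, where in the breast the myoepithelial cells lie, and KRT15 is a further type I keratin of basal cells. TP63 is the p53-family factor that basal cells of stratified and glandular epithelia depend on.

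In the RefSeq annotation of Sscrofa11.1, the build of the deposited data, the type II genes and KRT18 lay on chromosome 5. KRT7 was at chr5:17553192-17570582 (plus strand, annotated there as a non-coding RNA), KRT5 at chr5:17862047-17868397 (minus), KRT8 at chr5:18172423-18180277 (minus) and KRT18 at chr5:18217686-18221432 (plus). KRT8 and KRT18 were thus neighbours, 37408 bases apart. KRT15 was at chr12:21124605-21130247 (plus) and TP63 at chr13:127115990-127347082 (plus). No RefSeq gene carried the symbol KRT14, while 2 loci on chromosome 12 were named keratin 14 or 14-like, so reads of near-identical copies may have been divided or shared among them and every KRT14 value is uncertain to that extent.

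The 250 bases before the annotated start are shown for the basal keratin KRT5 and for the neighbours KRT8 and KRT18, since KRT5 and KRT18 lay on opposite sides of the luminal and basal comparison and KRT8 on neither. Capitals mark matches on either strand to 3 motifs, the TATA box TATAAA, the GC box GGGCGG and the AP-1 site TGANTCA.
KRT5, chr5:17868398-17868647, minus strand: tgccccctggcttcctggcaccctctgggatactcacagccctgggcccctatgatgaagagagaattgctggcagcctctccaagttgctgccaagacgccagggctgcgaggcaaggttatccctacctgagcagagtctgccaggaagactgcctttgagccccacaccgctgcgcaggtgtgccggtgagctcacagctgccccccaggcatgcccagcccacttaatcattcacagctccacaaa
KRT8, chr5:18180278-18180527, minus strand: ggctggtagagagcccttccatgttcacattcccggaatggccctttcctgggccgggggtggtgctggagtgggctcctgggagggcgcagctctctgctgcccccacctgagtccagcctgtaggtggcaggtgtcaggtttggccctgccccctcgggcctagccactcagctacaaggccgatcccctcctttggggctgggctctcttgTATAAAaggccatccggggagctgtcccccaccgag
KRT18, chr5:18217436-18217685, plus strand: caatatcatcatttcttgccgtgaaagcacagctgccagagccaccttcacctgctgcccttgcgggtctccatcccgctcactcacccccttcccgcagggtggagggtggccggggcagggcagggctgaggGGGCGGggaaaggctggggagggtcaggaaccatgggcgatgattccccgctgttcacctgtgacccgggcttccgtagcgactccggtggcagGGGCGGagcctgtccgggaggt
The KRT8 window held 1 TATAAA at position -36, the KRT18 window 2 GGGCGG and the KRT5 window none of the 3 motifs. Among 19559 promoters of the same length, 9.77% held TATAAA, 45.9% GGGCGG and 5.27% TGANTCA. A match describes the letters only.

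The 10 gland libraries held 126833 nuclei after filtering, with total counts of 18700704 to 53161349 unique molecular identifiers (UMIs) and medians of 1382 to 2496 UMIs per nucleus. Nuclei were assigned to classes by lists of other marker genes that hold none of the 7 genes, which gave 58535 luminal nuclei (1088 to 14256 per gland) and 1932 basal nuclei (63 to 457 per gland). A further 34.5% of nuclei stayed unassigned, and 14.3% reached the minimum for more than 1 list. Levels are UMIs of the gene scaled to 1e+06 UMIs of the class in that gland (CPM) and are not compared between genes, because transcript length and capture differ. Immune nuclei, which should lack these genes, were taken as a reference for free RNA. Other non-epithelial classes gave higher levels for some genes, so the reference is a lenient one. For KRT7 the means were 41.6 CPM in immune, 64.8 in endothelial and 63.6 in fibroblast nuclei.

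TP63 separated basal from luminal nuclei most sharply. Its level in basal nuclei was 509 to 1005 CPM over the 10 glands (median 668), against 10.3 to 34.0 CPM in luminal nuclei (median 16.0). The groups did not overlap, and the basal value was higher in 10 of 10 sows. Luminal TP63 was 34.9-fold lower (log2 difference -5.13 ± 0.23, SE, n = 10 sows, edgeR's quasi-likelihood test with sow as block and Benjamini-Hochberg adjustment over all genes, adjusted p = 5.69e-15). Immune nuclei ranged from 0 to 32.5 CPM (median 10.6), and luminal exceeded immune in 8 of 10 glands. A TP63 UMI was found in 36.6% to 66.7% of basal nuclei and in 2.13% to 10.5% of luminal nuclei, and at an equal depth of 1000 UMIs the expected medians were 37.3% and 1.52%, with 1.12% in immune nuclei.

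KRT5, the basal type II keratin, followed the same division. Basal nuclei held 61.3 to 533 CPM (median 219.7) and luminal nuclei 3.48 to 78.6 CPM (median 14.9). Every gland had more KRT5 in basal nuclei, although the lowest basal value, in G90 replicate 2, lay below the highest luminal value, in PI7 replicate 1. The difference was -3.69 ± 0.28 (log2, luminal minus basal, SE, n = 10, edgeR adjusted p = 5.6e-11). Immune nuclei held 0 to 30.3 CPM of KRT5 (median 7.25), and luminal exceeded immune in 8 of 10 glands.

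KRT14, the partner of KRT5, was not limited to basal nuclei. Its level was 97.1 to 1068 CPM in basal nuclei (median 656) and 29.2 to 626 CPM in luminal nuclei (median 169). Within each sow basal nuclei were higher, 10 of 10, but the ranges overlapped widely and the difference was -1.76 ± 0.21 (log2, edgeR adjusted p = 2.9e-07). Luminal KRT14 exceeded immune KRT14 in 10 of 10 glands, with 18.3 to 143 CPM in immune nuclei. The highest luminal value belonged to L20 replicate 1, where fibroblast, endothelial and immune nuclei also held 316, 258 and 143 CPM, the highest of their classes. The part of free RNA in that library's luminal value was not tested.

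KRT15 was the most variable of the basal keratins. Basal nuclei held 6.67 to 479.8 CPM (median 190.2) and luminal nuclei 5.03 to 264 CPM (median 46.5). Basal nuclei were higher in 8 of 10 sows, and the exceptions were L20 replicate 1 (37.2 basal, 75.8 luminal) and PI7 replicate 2 (263 basal, 264 luminal). The difference was -1.91 ± 0.42 (log2, edgeR adjusted p = 0.000798), and without the sow as block the call was lost (-1.45, adjusted p = 0.116). In PI2 replicate 2 the gene was nearly absent, with 6.67 CPM from a single UMI in basal nuclei and 6.55 CPM in luminal nuclei, whereas PI2 replicate 1 held 441 and 196 CPM.

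KRT18, alone among the 7, was called higher in luminal nuclei. Luminal nuclei held 3.73 to 101 CPM (median 39.2) and basal nuclei 0 to 27.3 CPM (median 8.32), a difference of 2.01 ± 0.26 (log2, edgeR adjusted p = 9.67e-07), with luminal higher in 9 of 10 sows. Basal values rested on 0 to 29 UMIs per gland, and the basal range was close to that of immune nuclei, 0 to 20.9 CPM, with basal above immune in 7 of 10 glands. Endothelial nuclei had a mean of 14.1 CPM against 11.8 CPM in basal nuclei, and were higher in 5 of 10 glands.

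KRT8, the partner of KRT18, and KRT7 did not separate the 2 classes over all 10 sows. KRT8 was 13.4 to 379 CPM in luminal nuclei (median 166) and 46.3 to 214 CPM in basal nuclei (median 104), higher in luminal nuclei of 5 of 10 sows, and the difference was 0.20 ± 0.27 (log2, edgeR adjusted p = 0.629). The direction ran with stage for KRT8. Luminal nuclei were higher in all PI2 and PI7 sows and lower in all L0 and L20 sows, so this difference joins opposite directions. KRT7 was 106 to 438 CPM in luminal nuclei (median 210.4) and 76.6 to 541 CPM in basal nuclei (median 194), with a difference of 0.45 ± 0.18 (log2, edgeR adjusted p = 0.0606). Basal nuclei exceeded immune nuclei of the same gland in 10 of 10 glands for both genes.

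In all, 5 of the 7 genes were called in this comparison (adjusted p under 0.05 and a log2 difference over 1 in size), 4 lower and 1 higher in luminal nuclei, beside 19.9% of the 16903 genes tested (10.2% lower and 9.66% higher). The median log2 difference was -1.76 over the 7 and 0.13 over all genes tested.

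**Figure D1:**
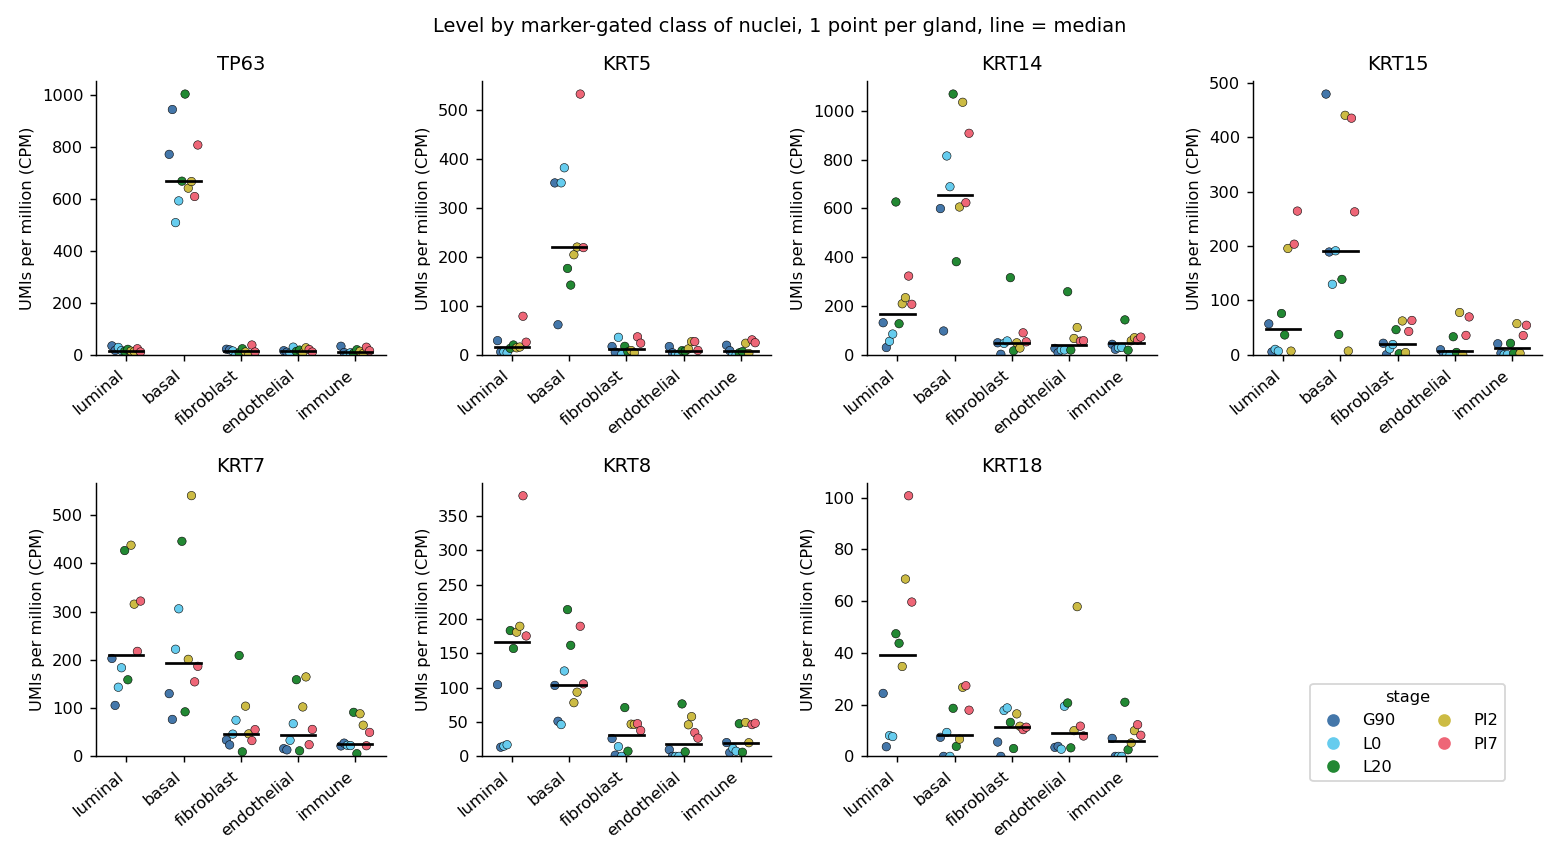
Level of each gene (CPM, vertical axes from 0) in marker-gated luminal, basal, fibroblast, endothelial and immune nuclei, with 1 point per gland coloured by stage and a line at the median. TP63 basal points (509 to 1005 CPM) stand clear of all others, KRT14 has luminal points up to 626 CPM, and KRT18 is highest in luminal nuclei.

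Nuclei with a UMI of KRT8 more often held KRT18 as well. In luminal nuclei the median share with KRT18 was 14.8% among KRT8-positive and 5.36% among KRT8-negative nuclei, and it was higher among the positive in 10 of 10 glands. In basal nuclei KRT14 was found in a median of 67.3% of KRT5-positive and 43.1% of KRT5-negative nuclei, higher in 8 of 10 glands. In luminal nuclei KRT14 accompanied KRT8, with medians of 40.3% and 22.5% and the same direction in 10 of 10 glands, so that 3786 luminal nuclei held a UMI of both. For TP63 and KRT14 in luminal nuclei the medians were 25.9% among TP63-positive and 27.0% among TP63-negative nuclei, although the positive were higher in 7 of 10 glands. In basal nuclei the median shares with KRT18 over glands were 1.56% of KRT8-positive and 1.35% of KRT8-negative nuclei, higher in 5 of 10 glands. These medians rest on few nuclei, with 0 KRT18-positive basal nuclei in G90 replicate 2 and in L0 replicate 2. Over all glands 17 of 285 KRT8-positive basal nuclei held KRT18. In PI7 replicate 1, with the most KRT18-positive basal nuclei (18 of 457), the shares were 10% and 2.45%. Positive nuclei were also deeper (medians over glands of 2969.25 against 2326.5 UMIs for KRT8 in luminal nuclei), and the part of depth in these shares was not tested.

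The luminal nuclei were then divided by genes that mark luminal states in the mammary gland. Nuclei with UMIs of the hormone receptor group (ESR1, PGR and the factor FOXA1) were compared with nuclei with UMIs of ELF5, the factor of the secretory alveolar line, within 9 sows (L0 replicate 2 had under 20 nuclei of the receptor group and was left out). KRT14, KRT8 and KRT18 were called higher and KRT15 lower in the receptor group, so 4 of the 7 were called beside 16.1% of 12062 genes (8.68% higher and 7.39% lower).

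KRT14 was 103 to 1039 CPM in the receptor group (median 410.0) and 27.5 to 389 CPM in the ELF5 group (median 116). It was higher in 9 of 9 sows, by 1.89 ± 0.15 (log2, SE, edgeR adjusted p = 5.98e-08). KRT8 was 42.4 to 556 CPM (median 299.6) against 9.25 to 219.6 CPM (median 132), also higher in 9 of 9 sows, by 1.85 ± 0.27 (edgeR adjusted p = 5.56e-05). The ranges of both genes overlapped across sows.

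KRT18 was 10.6 to 117 CPM in the receptor group (median 67.9) and 3.15 to 57.7 CPM in the ELF5 group (median 30.8), higher in 8 of 9 sows. Its difference was 1.57 ± 0.26 (log2, edgeR adjusted p = 0.000211), and the exception was PI2 replicate 2. The lowest share of receptor-group nuclei with a UMI in a gland was 3.23% for both KRT18 and KRT8. Their lowest values there thus rest on few UMIs. KRT15 went the other way, with 0 to 70.5 CPM (median 13.2) against 4.93 to 204 CPM (median 42.2), lower in 9 of 9 sows by a log2 difference of -1.12 ± 0.29 (edgeR adjusted p = 0.00714). That call was lost in 5 of 18 other settings, and over the 18 the log2 difference ranged from -1.49 to -0.76. For KRT5, KRT7 and TP63 the log2 differences were -0.05 ± 0.48, 0.04 ± 0.19 and -0.80 ± 0.38, none past the threshold.

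**Figure D2:**
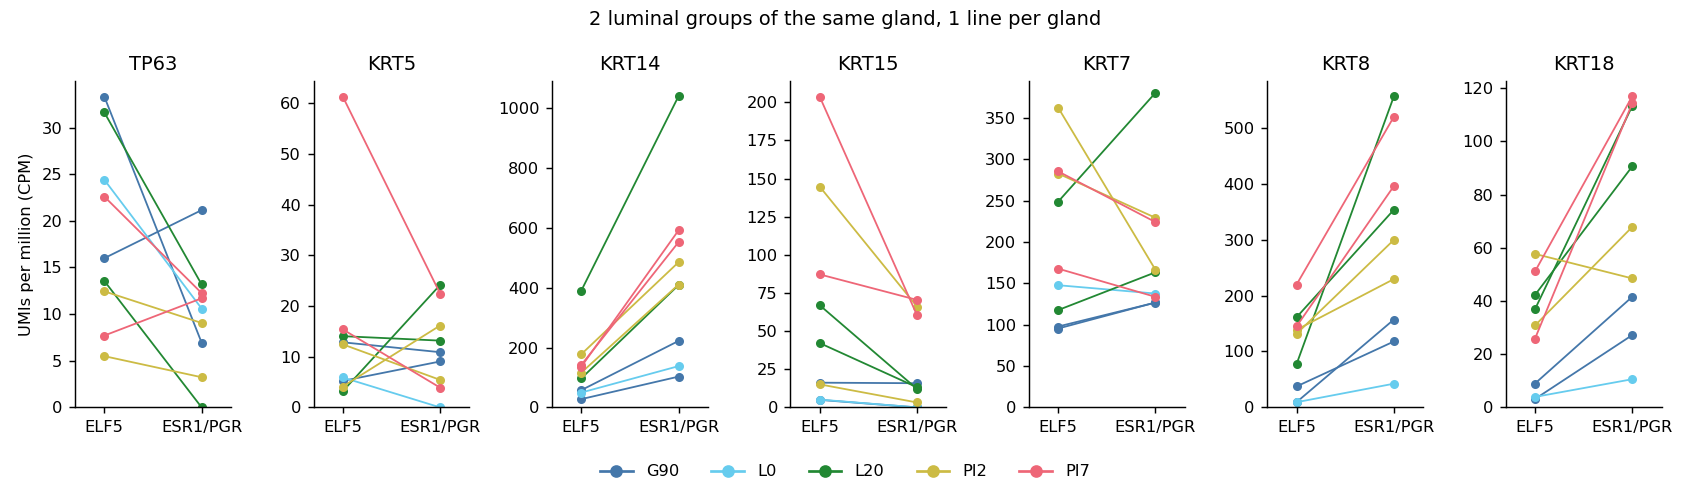
Level (CPM) of each gene in the ELF5 and the ESR1/PGR luminal groups of the same gland, with 1 line per gland (9 glands) coloured by stage and each vertical axis on its own scale from 0. All 9 lines rise for KRT14 and KRT8, 8 of 9 rise for KRT18 and all 9 fall for KRT15.

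Nuclei gated by KIT and ALDH1A3, genes of luminal progenitors, gave a further set of levels, described with no test. KRT7 was 153 to 572 CPM there (median 312) against a median of 164 CPM in the ELF5 group, higher in 10 of 10 glands. KRT14 (median 227 against 106 CPM) and KRT8 (178 against 104 CPM) were likewise higher in 10 of 10 glands. KRT15 was higher in 8 of 10 (84.5 against 29.2 CPM) and KRT5 in 9 of 10 (19.1 against 9.66 CPM). KRT18 was higher in 8 of 10 (43.6 against 28.3 CPM) and TP63 in 7 of 10, with close medians of 15.7 and 14.9 CPM. Each of the 7 genes was thus higher in the KIT group in most glands. How many of all genes were higher there was not counted, so whether the direction is particular to the 7 was not tested. Nuclei gated by PIGR and FDCSP, in 8 glands, had medians of 353 CPM for KRT14, 196 for KRT8, 262 for KRT7 and 57.3 for KRT18. These lay above the ELF5 medians given here for 10 glands. The sets of glands differ, and the PIGR and ELF5 groups were not compared within glands.

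Across stages no gene of the 7 was called in luminal, basal or whole-gland sums between neighbouring stages. With 2 sows per stage the tests called 0 or 1 gene of all those tested in each of the 12 comparisons (0.00524% of genes in luminal nuclei between G90 and L0, 0.0142% in basal nuclei between L0 and L20 and between L20 and PI2, and 0% in the other 9), and in simulated counts of the luminal comparison of L0 with G90 they recovered 0 of 200 genes given a log2 change of 2. At an unadjusted p under 0.05 edgeR counted 145 to 2912 genes per comparison, and 5 of the gene tests on the 7 were among them. In luminal nuclei these were 3 of 7 between L0 and L20, beside 2386 of 19077 genes, and 1 of 7 between PI2 and PI7, beside 474 of 19077. The other was 1 of 7 in whole glands between L0 and L20, beside 2912 of 22695 genes. The values are therefore given gland by gland.

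In luminal nuclei of the 2 G90 sows KRT8 stood at 104 and 13.4 CPM, and in the L0 sows at 14.9 and 16.95 CPM. Afterwards it was 183 and 157 CPM (L20), 181 and 189 CPM (PI2) and 379 and 175 CPM (PI7). Both L0 sows were low, as was G90 replicate 2. Between L0 and L20 the log2 difference was 3.06 ± 0.74 (edgeR unadjusted p = 0.00188, adjusted p = 0.173). DESeq2 called this difference (adjusted p = 0.00197), as did edgeR with no filter on low counts (adjusted p = 0.00803).

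Luminal KRT18 was low in the same sows, with 24.4 and 3.73 CPM (G90) and 8.04 and 7.66 CPM (L0). It was 47.4 and 43.7 CPM (L20), 34.8 and 68.6 CPM (PI2) and 101 and 59.7 CPM (PI7) at the later stages. The difference between L0 and L20 was 2.18 ± 0.71 (log2, edgeR adjusted p = 0.258), which DESeq2 called at an adjusted p of 0.0497. Immune nuclei of the same glands held at most 20.9 CPM of KRT18 and 49.4 CPM of KRT8. The make-up of the luminal class also differed between sows, with ELF5 nuclei numbering 5743 of 14256 in G90 replicate 2 and 123 of 3582 in PI7 replicate 1. Within ELF5 nuclei alone KRT8 was 9.25 and 9.74 CPM at L0 against 161 and 77.3 CPM at L20, and KRT18 3.94 and 6.30 against 42.3 and 36.9 CPM. The part of class make-up, free RNA and depth in these levels was not tested.

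KRT14, KRT15 and KRT5 also stood higher in both L20 sows than in both L0 sows of luminal nuclei. The glands themselves differed in make-up, with 71.4% and 76.0% luminal nuclei at L0 but 41.6% and 7.18% at L20, where replicate 2 held 23.9% fibroblast nuclei and 277 of the 330 adipocyte nuclei, and the part of this in the levels was not tested. KRT14 was 54.8 and 84.6 CPM at L0 and 626 and 127 CPM at L20 (log2 2.20 ± 0.82, edgeR adjusted p = 0.306). KRT15 was 9.76 and 6.44 CPM at L0 and 75.8 and 36.3 CPM at L20 (log2 2.50 ± 1.27, edgeR adjusted p = 0.46). In all 5 of the 7 genes had both L20 sows above both L0 sows, where 34.4% of the 19077 genes tested did. In whole-gland sums the count was 4 of 7 beside 40.4% of 22695 genes, and in such sums fewer cells of a type and less RNA per cell cannot be told apart.

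In basal nuclei TP63 stood at 772 and 945 CPM (G90), 509 and 593 CPM (L0), 669 and 1005 CPM (L20), 642 and 667 CPM (PI2) and 609.8 and 808 CPM (PI7). Both L0 sows lay below both G90 sows (as 25.2% of 7040 genes did), both L20 sows above both L0 sows (20.9%) and both PI2 sows below both L20 sows (12.8%). Its log2 differences between neighbouring stages were -0.59 ± 0.43, 0.52 ± 0.43, -0.36 ± 0.43 and 0.04 ± 0.42, none past the threshold. Basal KRT5 was 352 and 61.3 CPM (G90), 352 and 383 CPM (L0), 177 and 142 CPM (L20), 205 and 220.3 CPM (PI2) and 533 and 219 CPM (PI7). Both L20 sows lay below both L0 sows (15% of genes), while both L0 sows lay above both G90 sows (18%) and both PI2 sows above both L20 sows (12.9%). The order of L0 and G90 rests on a near tie, with 352 CPM in replicate 1 of both stages, from 38 UMIs at L0. Among the other keratins tested in basal nuclei, KRT14 and KRT7 were also higher in both L0 sows than in both G90 sows. KRT8 was higher in both L20 than in both L0 sows, lower in both PI2 than in both L20 sows and higher in both PI7 than in both PI2 sows (17.7%), where KRT7 was lower (11.4%). Basal nuclei numbered only 63 to 114 in 6 of the 10 glands, so that the lowest KRT5 value, in G90 replicate 2, rested on 12 UMIs.

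**Figure D3:**
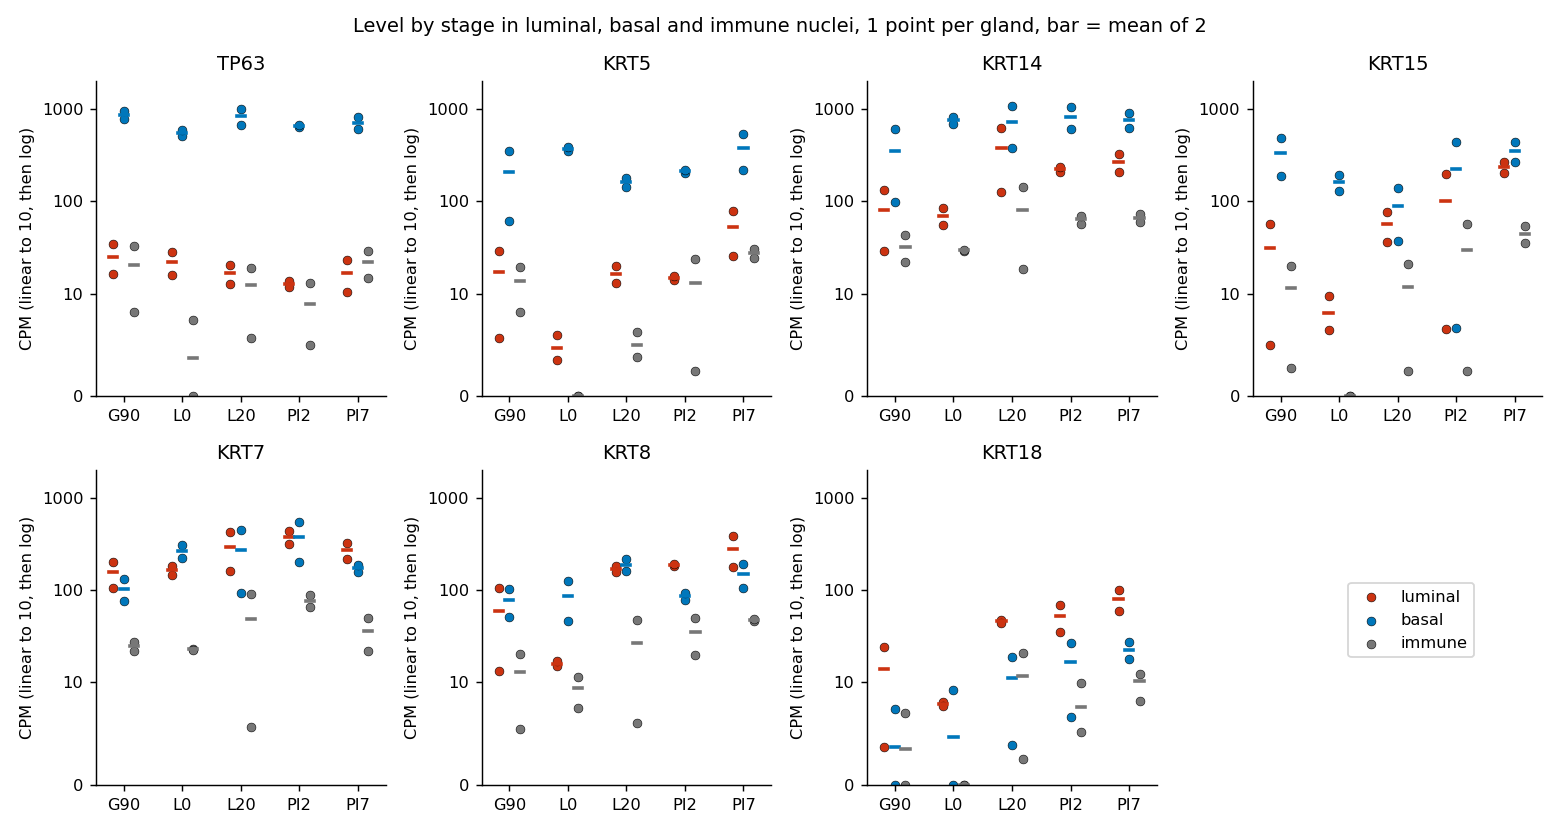
Level of each gene by stage in luminal, basal and immune nuclei, with 1 point per gland and a bar at the mean of 2 (CPM, linear to 10 and logarithmic above). Luminal KRT8 and KRT18 are low at L0 (14.9 and 16.95 CPM, 8.04 and 7.66 CPM) and higher from L20, while basal TP63 stays between 509 and 1005 CPM.

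Whether luminal and basal nuclei moved apart between stages was tested as a difference of differences within sows, a test added after the data were seen. Its p-values equal those of a normal distribution, so they allow less for the few sows than those of the stage tests. It called 271 genes between G90 and L0 and 204 between L0 and L20, where the stage tests called 0 or 1. Between G90 and L0, KRT5 was the 1 gene of the 7 called, beside 1.6% of 16903 genes, and its luminal minus basal difference fell by 2.35 ± 0.50 (log2, edgeR adjusted p = 0.000749). The luminal values went from 28.8 and 5.64 CPM to 5.98 and 3.48 CPM, and the basal values from 352 and 61.3 CPM to 352 and 383 CPM. These luminal values lay within the range of KRT5 in immune nuclei over all glands, 0 to 30.3 CPM. Without L0 replicate 2 the call was lost (-1.81, adjusted p = 0.248).

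Between L0 and L20 KRT5, KRT14 and KRT15 were called, 3 of 7 beside 1.21% of 16903 genes. Each moved toward luminal nuclei, KRT5 by 2.73 ± 0.52, KRT14 by 1.98 ± 0.45 and KRT15 by 3.07 ± 0.56 (log2, edgeR adjusted p = 6.76e-05, 0.00253 and 1.96e-05). For KRT5 the luminal level was 5.98 and 3.48 CPM at L0 and 12.9 and 19.8 CPM at L20, while the basal level was 352 and 383 CPM and then 177 and 142 CPM. The luminal levels again lay within the immune range of 0 to 30.3 CPM, and the part of free RNA in them was not tested. Without L20 replicate 1, whose non-epithelial nuclei also held the most KRT14, KRT5 was the 1 gene called, and without L0 replicate 2 it was KRT14. Without L0 replicate 1 KRT14 was not called (1.67, adjusted p = 0.226), while KRT8 was. KRT8 stood at 1.93 ± 0.59 (edgeR adjusted p = 0.0739) over all sows and was called in 7 of 16 other settings (2.06 to 2.63). Over the 16 settings the log2 change ranged from 2.37 to 3.31 for KRT5, from 2.02 to 5.21 for KRT15 and from 1.51 to 2.55 for KRT14, and basal KRT15 in L20 replicate 1 rested on 4 UMIs. None of the 7 was called between L20 and PI2 (0.0473% of genes called) or between PI2 and PI7 (0.00592%).

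Genes of the structures that keratins attach to were read from lists of related genes. Of 8 genes of the hemidesmosome, which anchors basal keratins to the basement membrane, and its laminin ligand, 5 were called lower in luminal than in basal nuclei and none higher, beside 10.2% and 9.66% of all genes (list median -1.47, all genes 0.13). LAMA3, a chain of that laminin, was 26.4 ± 12.4 CPM in luminal and 1151 ± 306 CPM in basal nuclei (SD, n = 10; log2 -5.32 ± 0.26 SE, edgeR adjusted p = 2.41e-14). DST, the linker between keratin and the hemidesmosome, was 79.8 ± 48.7 and 1367 ± 445 CPM (log2 -4.18 ± 0.26), and ITGB4, the integrin chain of the hemidesmosome, had -1.75 ± 0.22. Basal nuclei were gated on OXTR, CDH3, TRIM29, COL17A1, VSNL1, IL17B and contractile genes. COL17A1 is itself a hemidesmosome gene, so the hemidesmosome list is not independent of the gate.

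Of 12 desmosome genes tested, 3 were called lower and 1 higher in luminal nuclei (list median 0.06), beside 10.2% and 9.66% of all genes. DSG3, the desmoglein of basal layers, had a log2 difference of -3.81 ± 0.39, PERP -2.26 ± 0.22 and PKP1 -2.19 ± 0.51, while PKP2, the plakophilin of simple epithelia, was 175 ± 95.9 CPM in luminal and 35.8 ± 25.5 CPM in basal nuclei (log2 2.54 ± 0.22, edgeR adjusted p = 6.03e-10). Among 7 tested genes linked to TP63, 3 were lower in luminal nuclei and none higher, namely the Notch ligand JAG2 (-4.86 ± 0.24), the growth factor receptor FGFR2 (-2.73 ± 0.21) and the paralog TP73 (-2.69 ± 0.28).

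Of 8 other keratins tested, out of 31 in the files, KRT23 was lower (log2 -4.02 ± 0.54) and KRT79 higher (1.99 ± 0.72) in luminal nuclei, a share near the 19.9% of all genes called. Among 5 other intermediate filament genes VIM (-2.75 ± 0.33) and LMNA (-1.12 ± 0.23) were lower in luminal nuclei, and of 3 linker and envelope genes the plakin PPL was higher (1.28 ± 0.23).

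In the ESR1 and PGR group the hemidesmosome list had 3 of 8 genes called higher than in the ELF5 group and none lower, among them DST by 2.72 ± 0.19 and LAMA3 by 1.298 ± 0.41 (log2, list median 0.47, all genes -0.12), beside 8.68% of all genes called higher and 7.39% lower. DST was 369 ± 163 CPM there (SD, n = 9) against 57.7 ± 34.9 CPM in the ELF5 group (n = 10). The desmosome list had PERP higher (2.84 ± 0.25) and DSC2 lower (-1.07 ± 0.20) among 8 tested. TFAP2C (-2.24 ± 0.29) and FGFR2 (-1.42 ± 0.26) were lower among 6 TP63-linked genes, and KRT23 (2.12 ± 0.70) and the plakin EVPL (1.80 ± 0.28) were higher.

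The genes whose levels ran most like each of the 7 were sought over 57 sums of a gland and class, among 9697 genes. For TP63 they were FHOD3, LAMA1 and PLCH2 (Pearson r = 0.90, 0.87 and 0.86), and for KRT5 they were NECTIN1, PERP and TRIM29 (0.84, 0.84 and 0.82), TRIM29 being a gene of the basal gate. KRT7 ran most like TFAP2A, SPINT2 and SPINT1 (0.92, 0.89 and 0.83). KRT14 ran like PERP and SPINT2 (0.79 and 0.77) and KRT8 like STAC2 and GABRP (0.78 and 0.75), each among its 3 nearest genes. KRT15 was nearest to PERP (0.77) and KRT18 to CLU (0.76). Among the 7 themselves, KRT14 with KRT7 reached 0.80 and KRT5 with TP63 0.75, whereas KRT8 with KRT18 reached 0.52 and TP63 with KRT18 -0.02. These sums share libraries and differ in depth, so the values are descriptions.

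The 2 sections held 4718 spots at G90 and 2198 at PI2, with medians of 8063.5 and 6097.5 UMIs per spot. A spot covers several cells, and with 1 section per stage there was no test. KRT14 was 516 CPM at G90 (95% Poisson interval 509 to 523, for counting error only) and 1905 CPM at PI2 (1885 to 1925). KRT8 was 523 and 1467 CPM, KRT5 60.4 and 217.5 CPM, KRT18 133 and 337 CPM, KRT7 316 and 668 CPM and KRT15 164 and 366 CPM. All 6 keratins were thus higher in the PI2 section, whereas TP63 was 18.7 CPM (17.4 to 20.0) at G90 and 16.8 CPM (14.9 to 18.8) at PI2, with overlapping intervals.

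Within each section the 7 genes were higher where luminal markers were dense. From the bottom to the top 25% of spots by luminal UMIs, KRT15 rose 3.53-fold and KRT8 2.35-fold at PI2, and 1.55-fold and 1.18-fold at G90. With the top and bottom 10% of spots these ratios at PI2 were 7.61 and 4.57, and that of KRT5 was 4.39 in place of 2.10. By the basal-specific list the ratios were 1.25 to 3.03 at PI2 and 1.24 to 1.86 at G90. By the fibroblast list every ratio was below 1, 0.40 to 0.60 at PI2 and 0.68 to 0.83 at G90. The contractile list, shared by basal and mural cells, gave ratios above 1 for TP63 in both sections (1.198 and 1.48) but below 1 for KRT5, KRT14, KRT8, KRT7 and KRT18. With the top and bottom 10% of spots the TP63 ratio at PI2 turned to 0.71. For KRT15 the contractile ratio was 1.08 at G90 and 0.57 at PI2. Bottom spots by the basal-specific list were those with no UMI of it and were shallower, with medians of 3373 against 8461.5 UMIs at G90.

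**Figure D4:**
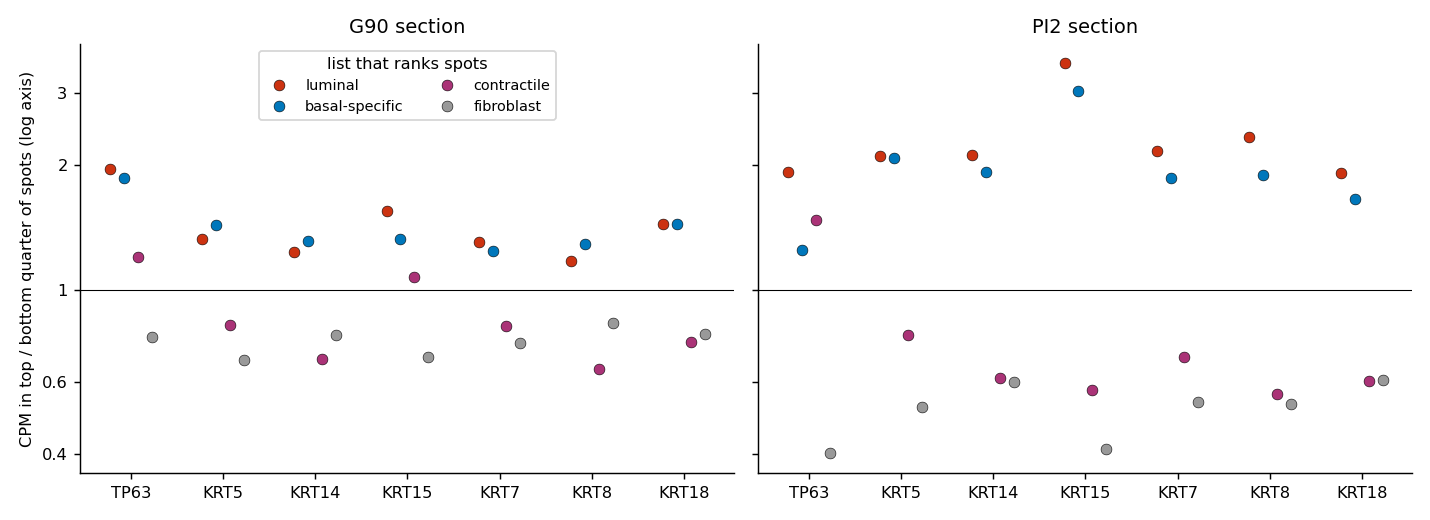
Ratio of CPM between the top and bottom 25% of spots, ranked by the luminal, basal-specific, contractile or fibroblast list, for each gene in the G90 and the PI2 section (log axis, line at 1, 1 section per stage). All points by the luminal list lie above 1 (1.18 to 1.963 at G90, 1.92 to 3.53 at PI2) and all by the fibroblast list below 1.

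Milk held luminal cells and very few basal ones by the same gates: 2913 luminal and 2 basal cells of 17571 at L0, and 788 luminal and 0 basal cells of 14514 at L20. Immune cells numbered 10852 and 9804. TP63 in luminal milk cells was 1.92 CPM at L0 and 0.449 CPM at L20, no more than in immune cells of the same milk within the intervals (2.45 and 0.418 CPM). The simple keratins were present, with KRT8 at 275 CPM (95% Poisson interval 271 to 279.8) and 304 CPM (292 to 315), against 13.6 and 5.40 CPM in immune cells.

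KRT18 was 113 and 174 CPM at L0 and L20 in luminal milk cells, KRT7 124 and 130 CPM (intervals 122 to 127 and 122 to 137), and KRT14 88.7 and 162 CPM. KRT5 was 12.9 and 7.29 CPM, above immune cells at 1.25 and 0.349 CPM. In the L20 milk 72 of 147 KRT5 UMIs lay in unassigned cells, at 13.5 CPM, and these cells also held KRT8 at 197 CPM and KRT14 at 117 CPM. KRT15 had the largest ratio of the 7 between the 2 milk samples, though not the largest difference in CPM, with 1.84 CPM (1.498 to 2.23) at L0 and 42.8 CPM (38.7 to 47.4) at L20. It rested on 103 UMIs in 34 cells at L0 and 382 UMIs in 113 cells at L20. Luminal cells were deeper at L0 (median 17711 UMIs) than at L20 (3926 UMIs), and with 1 milk sample per stage no difference was tested.

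Milk cells with ELF5 UMIs, 160 at L0 and 142 at L20, held higher keratin CPM than luminal milk cells as a whole. KRT8 was 862 and 1175 CPM in them, KRT14 359 and 804 CPM and KRT7 569 and 865 CPM. KRT15 was 6.51 CPM at L0 and 596 CPM at L20. They were also shallower, with medians of 3841.5 and 2324.5 UMIs, and the part of depth was not tested.

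**Figure D5:**
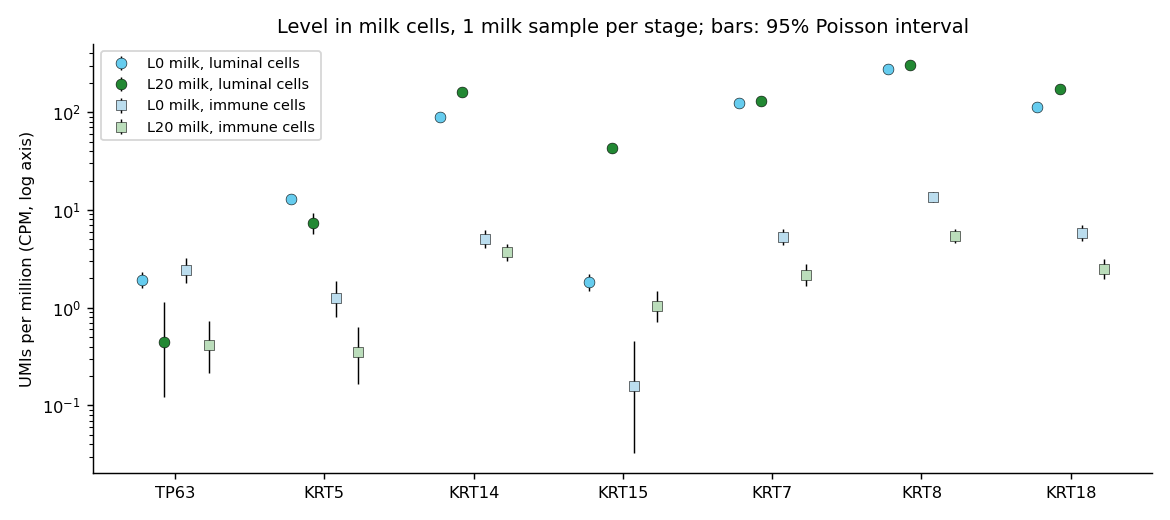
Level (CPM, log axis) of each gene in luminal and immune cells of the L0 and the L20 milk sample, 1 sample per stage, with 95% Poisson intervals as bars. The luminal points exceed the immune points for every keratin, while for TP63 the luminal points (1.92 and 0.449 CPM) lie beside the immune points (2.45 and 0.418 CPM).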

How the data were processed

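Nuclei of 10 glands, spots of 2 sections and cells of 2 milk samples were used. The deposited values were UMI counts per gene and barcode, not normalized, which the authors made with CeleScope 1.1.7 (nuclei and milk) or Space Ranger (sections; 1.2.0 per the labels, 1.3.1 per the file headers) on Sscrofa11.1. No removal of free RNA or doublets was stated, and no doublet caller was run. Barcodes were kept from 300 genes upward if mitochondrial UMIs made up no more than 25%, which left 126833 of 128233 nuclei. Between 0.55% and 1.52% of barcodes were shared by pairs of libraries outside the sections.

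A barcode entered a class with at least 3 UMIs from at least 2 genes of its marker list and at least 3 times the UMIs of every other list, and a luminal group with at least 2 UMIs. Of luminal nuclei 7.86% and of basal nuclei 11.5% lay 1 UMI from these limits. UMIs were summed per gland and class (at least 20 nuclei) and tested with edgeR 4.0.16 (quasi-likelihood, TMM, filterByExpr, Benjamini-Hochberg over all genes), with sow as block between classes and 1 fit over the 5 stages otherwise. Calls needed an adjusted p under 0.05 and an absolute log2 fold change over 1. On simulated counts of 15904 genes the luminal against basal test recovered 195 of 200 changed genes with 11 false calls. DESeq2 1.42.0, other scaling, filters and gates, and leaving out each gland were the alternatives. Intervals cover counting error only. Labels give the glands as separate sows. All 7 genes were named in every comparison, with up to 4 called genes of each related list and the 3 genes of highest correlation. Some items that this rule names are not reported here. The members and lists were chosen with earlier results of these data known, and the difference of differences between classes and stages was added after the data were seen.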

Additional observations from a re-analysis of the deposited data

Results flagged for a closer look

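The luminal minus basal difference changed between neighbouring stages for 3 of the genes, by the added edgeR test of the difference itself. From G90 to L0 the KRT5 difference changed by -2.35 ± 0.50 (log2, SE, adjusted p = 0.000749). From L0 to L20 it changed by 2.73 ± 0.52 for KRT5, by 3.07 ± 0.56 for KRT15 and by 1.98 ± 0.45 for KRT14 (adjusted p = 6.76e-05, 1.96e-05 and 0.00253). Over all genes 1.6% and 1.21% of 16903 were called in these 2 tests. Each of the 4 calls was lost on leaving out 1 gland: both KRT5 calls without L0 replicate 2 (adjusted p = 0.248 and 0.0619), KRT15 without L0 replicate 2 or L20 replicate 1 (0.082 and 0.117) and KRT14 without L0 replicate 1 or L20 replicate 1 (0.226 and 0.268). Each rests on 2 sows per stage, and the p-values follow a normal distribution, which allows less for so few sows than the stage tests did. The L0 and L20 sows had 63 to 114 basal nuclei each, and the G90 sows 360 and 69, with 12 KRT5 UMIs in G90 replicate 2. Luminal KRT5 at these 3 stages lay within the range of immune nuclei over all glands, 0 to 30.3 CPM.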

How the results depend on the processing

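The luminal against basal comparison called 5 of the 7 genes with every gland left out in turn (5 to 5) and with DESeq2, and the ESR1 and PGR comparison 3 to 4 with a gland left out. Without the replicate block the counts were 4 and 3, the calls lost being KRT15 in each (-1.45 and -0.95). Between L0 and L20, luminal nuclei gave 2 calls with DESeq2 and 1 with no filter on low counts against 0. DESeq2 called 818 genes in all there, where edgeR tested 19077. The luminal minus basal tests gave 0 to 1 call (G90 to L0) and 1 to 4 calls (L0 to L20) with a gland left out. Replicate numbers did not pair the sows (correlation of deviations -0.52 to 0.39, median -0.05, over whole glands), and the stage tests with the number as replicate block called 0 of the genes.

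Over all genes DESeq2 called more than the 0 or 1 of edgeR in 11 of the 12 stage tests, with 1 call each in basal nuclei between L20 and PI2: 935, 818, 4 and 11 in luminal nuclei, 10, 20, 1 and 2 in basal nuclei and 392, 1157, 17 and 13 in whole glands, in stage order. For the luminal minus basal tests it called 100, 96, 1 and 0 against 271, 204, 8 and 1. In sections 56 of 70 ratios moved beyond their counting interval with the top and bottom 10% of spots. In milk 7 of 28 levels moved with another gate. At 1000 UMIs 28 of 28 shares of spots or luminal milk cells with a UMI moved. Their median depths were well above 1000 UMIs, so lower shares were set in advance and this is no check. Basal levels are limited by 63 to 457 nuclei per gland, and stage differences by 2 sows each.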
